A study of Homo sapiens with 6 samples.

Results

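The genes examined here encode the subunits of the proteasome, with the immunoproteasome subunits PSMB8, PSMB9 and PSMB10 set against the constitutive ones. Members were all gene entries whose symbol is PSMA to PSMG followed by a number, apart from copies listed on alternative chromosome 6 haplotypes. This gave 48 genes of 24000 entries. The 14 skipped haplotype copies, all of PSMB8 or PSMB9, were listed at 0 in each tumor.

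RNA was sequenced from PC-3 tumors, which are xenografts of a human prostate cancer cell line, in nude mice. Such mice lack a thymus and mature T cells but keep myeloid cells. The Vehicle group held 3 tumors of mice given the vehicle, and the WCE group held 3 tumors of mice given a standardized extract of the herb Wedelia chinensis, with a treatment of 10 weeks in both groups by the labels. The study's text gives another, shorter treatment for PC-3 tumors and more than 1 dose of WCE, and the labels give neither the dose nor the age of the mice, so the treatment of these tumors is known only as far as the labels state it. For imaging, the study's Methods describe cells that carry a luciferase gene and were placed in the anterior prostate of male mice. Values are FPKM, fragment counts scaled to transcript length and to the mapped fragments of the library, as deposited.

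The proteasome is the protease that degrades ubiquitin-tagged proteins in the cytosol and nucleus. Its 20S core is a barrel of α rings (PSMA genes) around β rings (PSMB genes), of which the β1, β2 and β5 positions carry the active sites. The 19S cap recognizes, unfolds and feeds in the substrate through its ATPases (PSMC) and non-ATPase subunits (PSMD), and other caps are the PA28 and PA200 activators (PSME). In cells exposed to interferon, and in leukocytes without it, PSMB9, PSMB10 and PSMB8 are built into new cores in place of PSMB6, PSMB7 and PSMB5, which changes the peptides that are cut for MHC class I. The proteasome is also the step that removes phosphorylated IκB and so releases NFκB, the pathway addressed by the study.

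The deposited table holds no read counts. From the steps between low values, the relative depth of the tumors ranged from 25.0% in WCE replicate 1 to 100% in Vehicle replicate 3, the reference, with 64.8% to 85.2% in the other 4. Vehicle replicate 3 and WCE replicate 1, which carry different treatments, were nearly identical. Over the 46 proteasome genes that passed the filter below, the median absolute difference between them was 0.033 on the log2(FPKM + 1) scale, whereas the other 14 pairs lay between 0.090 and 0.235, and the largest was 0.15, in PSMG3. Across all entries, 1419 were above 0 in Vehicle replicate 3 and at 0 in WCE replicate 1, and 0 the other way round, whereas each of the other 14 pairs had at least 329 in either direction. Whether these are libraries of separate tumors is not known from the labels and was not tested. Each SD, p-value and n = 3 below counts both, 1 in each group. The labels were followed for all 6 tumors, and results are also given without these tumors, a choice made with their values known. The epithelial markers of the line were high in each tumor, with KRT18 at 241 to 322 FPKM, whereas KLK3, which encodes prostate-specific antigen, was listed at 0. Reads of the mouse host can be counted under human genes, and fewer cells of a type and less RNA per cell cannot be told apart in such bulk samples.

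The proteasome was an abundant transcript group in these tumors. Of the 48 genes, 46 averaged 0.5 FPKM or more across the tumors, and their median was 105 FPKM, against 10.7 FPKM over all 13287 entries that passed this filter. The 2 that did not pass are PSMA8, the testis-restricted α subunit, and PSMB11, the β5 subunit of the thymus. PSMA8 was listed at 0.048 FPKM and PSMB11 at 0.042 FPKM in Vehicle replicate 1, and both were listed at 0 in the other 5 tumors.

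Within the constitutive 20S core, levels per length ranged 11.5-fold between genes. PSMB4 (mean 382 FPKM) and PSMA7 (379 FPKM), structural subunits of the β and α rings, were highest. PSMB2 (33.4 FPKM) and PSMA5 (40.8 FPKM), which are also structural ring subunits, were lowest, and the next gene was PSMB7 at 131 FPKM. PSMB2 was the lowest of the 14 constitutive core genes in each tumor, at 30.7, 39.9 and 29.8 FPKM in the Vehicle tumors and 30.2, 36.6 and 33.2 FPKM in the WCE tumors. In the assembled core these subunits are present in equal number.

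In the 19S cap, the ATPase genes lay between 65.2 FPKM for PSMC2 and 212 FPKM for PSMC1. The non-ATPase genes ranged from 12.2 FPKM for PSMD5, a chaperone of cap assembly that leaves the finished complex, to 267 FPKM for PSMD2, the large scaffold subunit. Among the activators, the interferon-inducible PA28 genes PSME1 and PSME2 were highest, with 241 FPKM for PSME2, and PSME4, which encodes PA200, was lowest at 27.2 FPKM. PSMF1, the inhibitor PI31, had 40.9 FPKM. The core assembly chaperones ran from 24.9 FPKM for PSMG4 to 113 FPKM for PSMG3.

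The immunoproteasome genes were expressed below their constitutive counterparts in all 6 tumors. PSMB8, the β5i subunit with chymotrypsin-like activity, had 30.2, 63.8 and 65.2 FPKM in the Vehicle tumors and 64.2, 34.3 and 38.8 FPKM in the WCE tumors. It is listed on chromosome 6 in a locus from 32808494 to 32821748 (hg19), which 3 entries share, TAP1 among them. PSMB8 was high in Vehicle replicates 2 and 3 and in WCE replicate 1 and low in the others, so the groups overlapped fully.

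PSMB9, the β1i subunit, had 5.12, 18.5 and 17.5 FPKM in the Vehicle tumors and 15.9, 7.84 and 10.5 FPKM in the WCE tumors. Its listed locus runs from 32821938 to 32827628 on chromosome 6 (hg19), next to the shared locus that holds PSMB8 and TAP1. PSMB10, the β2i subunit, is on chromosome 16 from 67968407 to 67970780 (hg19) and had 18.6, 32.8 and 30.0 FPKM in the Vehicle tumors and 32.7, 22.3 and 26.4 FPKM in the WCE tumors. Both genes were high and low in the same tumors as PSMB8, with Vehicle replicate 1 lowest and WCE replicate 2 next lowest in each of the 3 genes.

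The constitutive subunits varied less. PSMB5, the constitutive β5 subunit, had 216, 187 and 188 FPKM in the Vehicle tumors and 192, 168 and 183 FPKM in the WCE tumors. PSMB6, the β1 subunit, had 200, 184 and 206 FPKM and 211, 172 and 178 FPKM, respectively. PSMB7, the trypsin-like β2 subunit, had 142, 106 and 131 FPKM and 139, 134 and 136 FPKM. In none of these 3 genes was Vehicle replicate 1 the lowest tumor, and the highest tumor exceeded the lowest by at most 1.34-fold among all constitutive β genes, compared with 1.76-fold for PSMB10, 2.16-fold for PSMB8 and 3.61-fold for PSMB9.

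**Figure D1:**
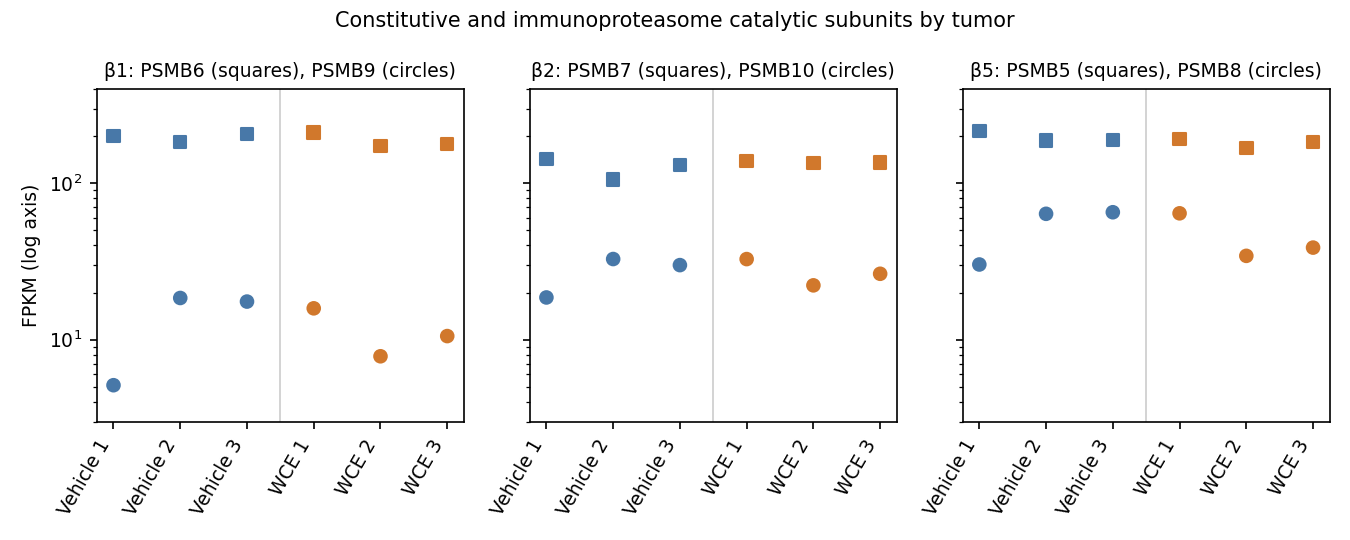
FPKM on a log axis of each constitutive catalytic subunit (squares) and its immunoproteasome counterpart (circles) in the 3 Vehicle tumors (blue) and the 3 WCE tumors (orange), 1 point per tumor. The squares stay between 106 and 216 FPKM, while PSMB9 runs from 5.12 FPKM in Vehicle replicate 1 to 18.5 FPKM in Vehicle replicate 2.

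Put as a ratio within each tumor, PSMB8 was 14.0%, 34.0% and 34.6% of PSMB5 in the Vehicle tumors and 33.5%, 20.4% and 21.2% in the WCE tumors. PSMB10 was 13.1% to 30.9% of PSMB7 and PSMB9 was 2.56% to 10.1% of PSMB6. The lowest share in each pair was in Vehicle replicate 1. The mean log2(FPKM + 1) of PSMB8, PSMB9 and PSMB10 minus that of PSMB5, PSMB6 and PSMB7 was −2.69 ± 0.77 in the Vehicle tumors and −2.76 ± 0.31 in the WCE tumors (SD, n = 3 each). The difference between the groups was thus smaller than the spread within either.

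The 3 immunoproteasome genes had the widest spread of all 46 proteasome genes over the 6 tumors. The SD of log2(FPKM + 1) was 0.67 for PSMB9, 0.50 for PSMB8 and 0.32 for PSMB10, and between 0.03 and 0.27 for the other 43 genes. Of all entries tested, 98.1%, 95.9% and 86.8% had a smaller SD than PSMB9, PSMB8 and PSMB10, respectively. These SDs describe the same tumors and were given no test.

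Of 7 interferon regulators and antigen-processing genes, 2 (TAP1 and TAPBP) had the same 3 highest tumors as the immunoproteasome genes, and the other 5, IRF1 and TAP2 among them, did not. TAP1, which transports the cut peptides into the endoplasmic reticulum, had 20.5, 41.5 and 48.4 FPKM in the Vehicle tumors and 46.9, 24.2 and 35.2 FPKM in the WCE tumors. As for the immunoproteasome genes, Vehicle replicate 1 was lowest and Vehicle replicates 2 and 3 and WCE replicate 1 were highest, and TAPBP, the chaperone tapasin that loads peptides onto MHC class I, had the same 3 highest tumors. IRF1, an interferon-induced transcription factor, was lowest in Vehicle replicate 1 too, at 5.36 FPKM, but highest in WCE replicate 3, at 16.4 FPKM. Vehicle replicate 1 was also lowest in TAPBP, STAT2, IRF9 and NLRC5 and in the epithelial-list markers KRT8, KRT18, KRT19 and VIM. It was not low in the rest of that list. EPCAM was highest there, at 305 FPKM, and CDH1 had 58.6 FPKM there, within 35.9 to 61.4 FPKM across the tumors. Of the 46 proteasome genes that passed the filter, 23 were highest in Vehicle replicate 1. TAP2, the partner of TAP1, had Vehicle replicate 1 among its 3 highest tumors and WCE replicate 2 as its lowest. The table places TAP1 and PSMB8 in 1 shared locus, so their values may not be independent. No correlation is given, as Vehicle replicate 3 and WCE replicate 1 may not be independent tumors. The share of all entries with these 3 highest tumors was not counted.

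Leukocytes make immunoproteasomes in the absence of interferon, and markers of leukocytes were therefore read beside these genes. PTPRC, which encodes CD45, had 0.106, 0.480 and 0.588 FPKM in the Vehicle tumors and 0.666, 0.207 and 0.122 FPKM in the WCE tumors. LAPTM5, a lysosomal protein of blood cells, had 0.868, 2.39 and 4.23 FPKM and 3.51, 1.06 and 1.32 FPKM. Both were highest in the same 3 tumors as PSMB8. Over the whole list of 10 markers, 4 averaged at least 0.5 FPKM, the defining markers TYROBP and CD3E were at 0 in each tumor, and the summed level was 28.4 to 47.6 FPKM in the Vehicle tumors and 44.96 to 49.1 FPKM in the WCE tumors, most of it from CD68. CD68, CYBB and CD79A, which with LAPTM5 passed the filter, had other orders across tumors. So did CD14, CSF1R and ITGAM, which like PTPRC did not pass it. The part of these cells in the immunoproteasome values was not tested.

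**Figure D2:**
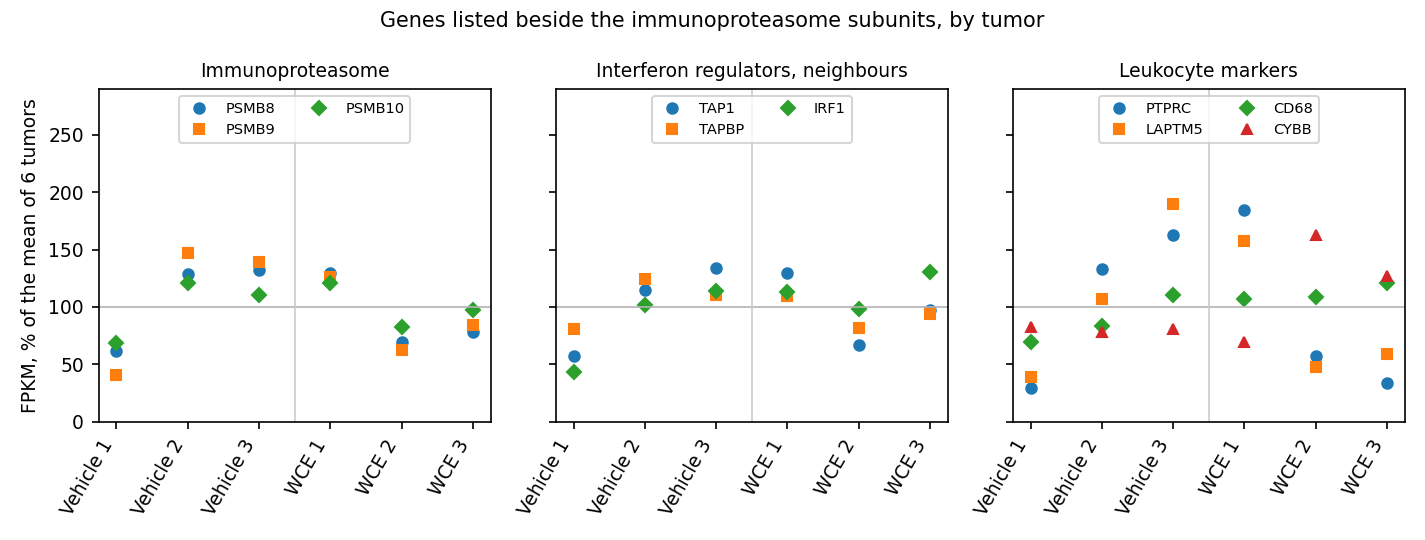
FPKM of each gene as a percent of its mean over the 6 tumors, for the immunoproteasome genes, 3 interferon regulators or antigen-processing genes and 4 leukocyte markers, 1 point per gene and tumor. All genes shown except CYBB are lowest in Vehicle replicate 1, and CYBB is lowest in WCE replicate 1 and highest in WCE replicate 2.

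The promoters of these genes are shown because interferon acts on them through short elements near the start site. RefSeq promoter windows (GRCh38.p14, 250 bases before to 50 after the start, 5′ to 3′ on the strand of the gene) were found for 42 of the 48 genes, and PSMA7, PSMB1, PSMB6, PSMB7, PSMD4 and PSMG3 had no entry. Capitals mark the core of the interferon-stimulated response element, GAAA and again GAAA after a gap of 2 bases, on either strand. Overlapping matches in TAP1 form 1 run of capitals. PSMB8, PSMB10 and TAP1 lie on the minus strand and PSMB9 on the plus strand.
PSMB8, chr6:32843998-32844297: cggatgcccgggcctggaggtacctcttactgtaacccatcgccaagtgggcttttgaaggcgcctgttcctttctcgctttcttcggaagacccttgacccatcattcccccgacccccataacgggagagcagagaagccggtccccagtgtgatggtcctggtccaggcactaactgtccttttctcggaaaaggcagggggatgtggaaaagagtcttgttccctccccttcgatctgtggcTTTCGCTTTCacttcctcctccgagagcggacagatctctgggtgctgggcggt
PSMB10, chr16:67936801-67937100: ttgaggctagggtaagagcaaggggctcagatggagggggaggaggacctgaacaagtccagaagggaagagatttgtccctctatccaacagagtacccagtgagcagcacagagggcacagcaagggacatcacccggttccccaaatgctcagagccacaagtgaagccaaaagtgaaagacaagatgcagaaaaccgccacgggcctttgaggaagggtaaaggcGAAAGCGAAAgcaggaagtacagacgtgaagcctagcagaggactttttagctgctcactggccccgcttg
TAP1, chr6:32853655-32853954: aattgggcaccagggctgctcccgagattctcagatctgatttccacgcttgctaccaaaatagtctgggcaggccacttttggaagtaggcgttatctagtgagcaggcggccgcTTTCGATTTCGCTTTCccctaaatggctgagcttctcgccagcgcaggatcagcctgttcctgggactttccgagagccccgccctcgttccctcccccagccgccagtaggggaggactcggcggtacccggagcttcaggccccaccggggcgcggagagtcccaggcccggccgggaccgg
PSMB9, chr6:32853942-32854241: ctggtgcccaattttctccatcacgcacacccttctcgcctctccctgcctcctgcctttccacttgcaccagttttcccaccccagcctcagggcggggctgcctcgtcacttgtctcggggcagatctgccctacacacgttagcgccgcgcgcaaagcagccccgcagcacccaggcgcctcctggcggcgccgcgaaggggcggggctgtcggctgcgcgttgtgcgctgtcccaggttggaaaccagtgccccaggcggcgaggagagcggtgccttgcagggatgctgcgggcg

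The same 10 letters, read on one strand or the other, occur in the windows of PSMB8 (bases 247 to 256 of the window), PSMB10 (bases 230 to 239) and TAP1 (bases 123 to 132). PSMB8 is transcribed from more than 1 start, and the other window held no match. The PSMB9 window held none either. PSMB9 and TAP1 are divergent genes whose listed starts are 488 bases apart, and the matches lie in the stretch between them. The motif occurred in windows of 7 of the 42 proteasome genes, the others being PSMA4, PSMB4, PSME1, PSME2 and PSMG4, which is 16.7% of these genes against 4.38% of the 27305 genes with a window. A gamma-activated site, TTCNNNGAA on either strand, was found in 8 of the 42 genes, or 19.05%, against 9.38% of all genes, and PSMB8 was the only immunoproteasome gene among the 8. A match of letters is a description and not a measured site.

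Between the groups, no immunoproteasome gene differed beyond its spread. The groups were compared by limma on log2(FPKM + 1) over the 13287 entries that passed the filter, with p-values adjusted over all of them. The log2 change from Vehicle to WCE was −0.18 for PSMB8 (standard error 0.34, 95% interval −0.96 to 0.60), −0.12 for PSMB9 (standard error 0.45, interval −1.17 to 0.93) and 0.02 for PSMB10 (standard error 0.23, interval −0.50 to 0.55). The unadjusted p by limma was 0.602, 0.798 and 0.924 and the adjusted p was 0.872, 0.949 and 0.980. The intervals are wide and reach beyond 0.5 on the log2 scale in both directions for each of the 3 genes. These values depend on single tumors. Dropping Vehicle replicate 2 or 3 put the log2 change of PSMB9 at 0.17 or 0.13. Dropping a WCE tumor put it at −0.37, 0.10 or −0.093, in order of replicate. PSMB8 ranged from −0.54 to 0.0037 over the fits that each left out 1 tumor. With Vehicle replicate 1 dropped, PSMB9 had a log2 change of −0.66. PSMB9 was then the 1 proteasome gene under an unadjusted p of 0.05 by limma, with 3.3% of all entries under it in that fit. With limma array weights, which give each tumor a weight from its own spread, PSMB8 was lower in WCE (log2 change −0.53, unadjusted p = 0.0455), with 24.1% of all entries under that threshold.

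The constitutive catalytic genes changed by −0.12 (PSMB5, interval −0.37 to 0.12), −0.07 (PSMB6, interval −0.33 to 0.19) and 0.12 (PSMB7, interval −0.17 to 0.41) on the log2 scale, with unadjusted p by limma of 0.277, 0.537 and 0.365. The mean change of PSMB8, PSMB9 and PSMB10 minus that of PSMB5, PSMB6 and PSMB7 was −0.068, and was −0.51 without Vehicle replicate 1, 0.20 without Vehicle replicate 2 and −0.41 with array weights.

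Across the whole complex, most genes had a lower mean in the WCE tumors by a small amount. The mean log2 value was lower in WCE for 34 of the 46 genes (73.9%), against 51.4% of all entries, and the median log2 change was −0.10, against −0.0063 over all entries. These genes were measured in the same 6 tumors, so their number adds no replicates. By tumor, the median log2(FPKM + 1) of the 46 genes was 6.76, 6.74 and 6.66 in Vehicle and 6.72, 6.70 and 6.62 in WCE. The groups overlapped in this value. Only 2 genes, PSMD5 and PSMG1, passed an unadjusted p of 0.05 by limma, which is 4.35% of the proteasome genes against 7.1% of all entries. Both were lower, a direction called in 3.33% of all entries, and 0 genes were called higher, against 3.78%. Neither gene was called once any tumor other than Vehicle replicate 3 or WCE replicate 1 was left out. None passed the adjusted threshold of 0.05, which 0.00753% of all entries passed.

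PSMD5, the cap assembly chaperone, had 15.2, 14.3 and 11.7 FPKM in the Vehicle tumors and 11.7, 10.3 and 9.96 FPKM in the WCE tumors. Vehicle replicates 1 and 2 were high, WCE replicates 2 and 3 were low, and the nearly identical Vehicle replicate 3 and WCE replicate 1 lay between them. Its log2 change was −0.33 (standard error 0.12, unadjusted p = 0.0312, adjusted p = 0.623 by limma), and the exact two-sided permutation test over the 6 tumors gave p = 0.2, where the smallest possible is 0.1.

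PSMG1, a chaperone that helps to assemble the α ring together with PSMG2, had 71.9, 66.3 and 60.9 FPKM in the Vehicle tumors and 63.4, 48.8 and 47.4 FPKM in the WCE tumors. The order of tumors was the one seen for PSMD5, and the groups overlapped only through WCE replicate 1, which was above Vehicle replicate 3. The log2 change was −0.32 (standard error 0.13, unadjusted p = 0.0454, adjusted p = 0.623 by limma). PSMG4, a chaperone that acts with PSMG3, had 28.4, 33.9 and 21.4 FPKM in the Vehicle tumors and 22.6, 20.3 and 22.9 FPKM in the WCE tumors, a log2 change of −0.31 (standard error 0.16, unadjusted p = 0.0945 by limma). The change was −0.49 without Vehicle replicate 3 (unadjusted p = 0.00652 by limma) and −0.16 without Vehicle replicate 2. All 4 assembly chaperones had a lower mean in the WCE tumors, with a median log2 change of −0.27, and PSMG3 had the smallest change, −0.10 (standard error 0.15), with 111, 145 and 97.5 FPKM in the Vehicle tumors and 109, 110.2 and 106 FPKM in the WCE tumors.

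The α subunits had a median log2 change of −0.19, with 6 of 7 lower, and the constitutive β subunits had −0.07, with 4 of 7 lower. The 19S ATPases had −0.04 with 5 of 6 lower, and the non-ATPase subunits had −0.04 with 9 of 14 lower. At the extremes of level in these classes, PSMA7 had 426, 385 and 368 FPKM in the Vehicle tumors and 391, 350 and 354 FPKM in the WCE tumors, a log2 change of −0.10 (standard error 0.10). PSMA5 had 40.3, 44.8 and 35.7 FPKM and 35.6, 47.3 and 41.4 FPKM, a log2 change of 0.04 (standard error 0.13). PSMB4 had 387, 384 and 370 FPKM and 377, 403 and 373 FPKM, a log2 change of 0.02 (standard error 0.09). In all of these the groups overlapped. PSMC1, an ATPase of the cap base, had 240, 208 and 213 FPKM in the Vehicle tumors and 213, 192 and 203 FPKM in the WCE tumors, a log2 change of −0.12 (standard error 0.10). PSMC2, another of the ring of ATPases, had 69.9, 62.5 and 64.4 FPKM and 65.9, 64.5 and 63.8 FPKM, a log2 change of −0.02 (standard error 0.09). None of the α, β or ATPase genes passed the unadjusted threshold by limma. In 6 genes (PSMA4, PSMA6, PSMD10, PSMD11, PSMD12 and PSMD13) every WCE tumor was below every Vehicle tumor, which is 13.04% of the proteasome genes against 6.4% of all entries. In these 6 genes the nearly identical Vehicle replicate 3 and WCE replicate 1 were only 0.0091 (PSMD13) to 0.037 (PSMA6) apart on the log2(FPKM + 1) scale. In 0 of the 46 genes was every WCE tumor above every Vehicle tumor, against 6.37% of all entries.

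PSMD12, a lid subunit of the cap, was the member of these 6 with the largest change. It had 141, 133 and 122 FPKM in the Vehicle tumors and 121, 112 and 102 FPKM in the WCE tumors. The groups were separated only by the gap between Vehicle replicate 3 and WCE replicate 1, which have nearly the same value. The log2 change was −0.24 (standard error 0.11, unadjusted p = 0.0527 by limma). PSMA4, an α ring subunit, had 197, 163 and 158 FPKM in the Vehicle tumors and 154, 150 and 142 FPKM in the WCE tumors, a log2 change of −0.21.

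The largest rise was smaller than the largest falls. PSMD6, another lid subunit, had 66.0, 79.6 and 61.8 FPKM in the Vehicle tumors and 62.6, 92.8 and 87.7 FPKM in the WCE tumors, a log2 change of 0.21 (standard error 0.17, unadjusted p = 0.246 by limma). Its groups overlapped through WCE replicate 1. Without that tumor the change was 0.39 (unadjusted p = 0.0246 by limma). Leaving out WCE replicate 2 instead gave 0.11. PSMB7 and PSMD2 followed, with log2 changes of 0.12 and 0.11. PSMD2 had 286, 206 and 284 FPKM in the Vehicle tumors and 281, 283 and 265 FPKM in the WCE tumors, with Vehicle replicate 2 the lowest, and without that tumor its change was −0.045.

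Among the regulators of the core, the PA28 genes showed overlapping groups. PSME1, PA28α, had 206, 237 and 239 FPKM in the Vehicle tumors and 251, 192 and 225 FPKM in the WCE tumors. PSME2, PA28β, had 218, 297 and 238 FPKM and 234, 220 and 240 FPKM. PSME2 was highest in Vehicle replicate 2. PSME1 was highest in the same 3 tumors as PSMB8, which held for 5 of the 46 proteasome genes, the other being PSMD7, a lid subunit. That order puts the nearly identical Vehicle replicate 3 and WCE replicate 1 on the same side, and its share over all entries was not counted.

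The nuclear activator PSME3, PA28γ, had 55.1, 49.3 and 46.3 FPKM in the Vehicle tumors and 47.4, 44.3 and 41.0 FPKM in the WCE tumors, a log2 change of −0.18 (standard error 0.11). PSME4 had 26.7, 26.6 and 26.1 FPKM and 25.4, 30.9 and 27.6 FPKM, a log2 change of 0.07. PSMF1 had 42.0, 39.4 and 43.4 FPKM and 44.2, 36.7 and 39.8 FPKM, a log2 change of −0.05. The unadjusted p by limma of PSME1 to PSME4 and PSMF1 lay between 0.132 for PSME3 and 0.797 for PSME1.

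**Figure D3:**
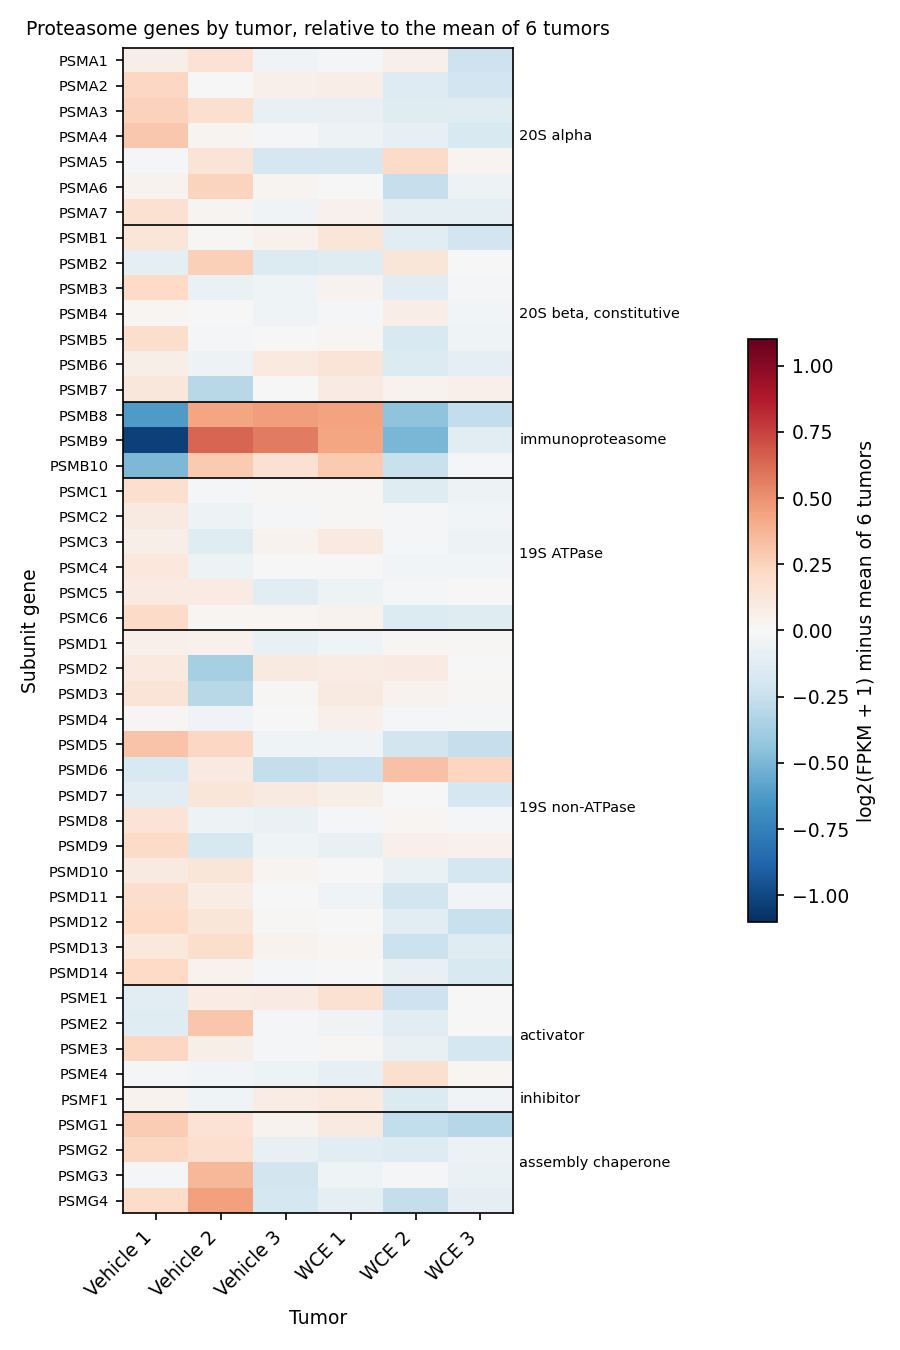
log2(FPKM + 1) of the 46 proteasome genes that passed the filter, each minus its own mean over the 6 tumors (red above, blue below), with tumors in columns and genes in rows grouped by role. The rows of PSMB8, PSMB9 and PSMB10 carry the strongest colors, and the columns of Vehicle replicate 3 and WCE replicate 1 are nearly the same.

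**Figure D4:**
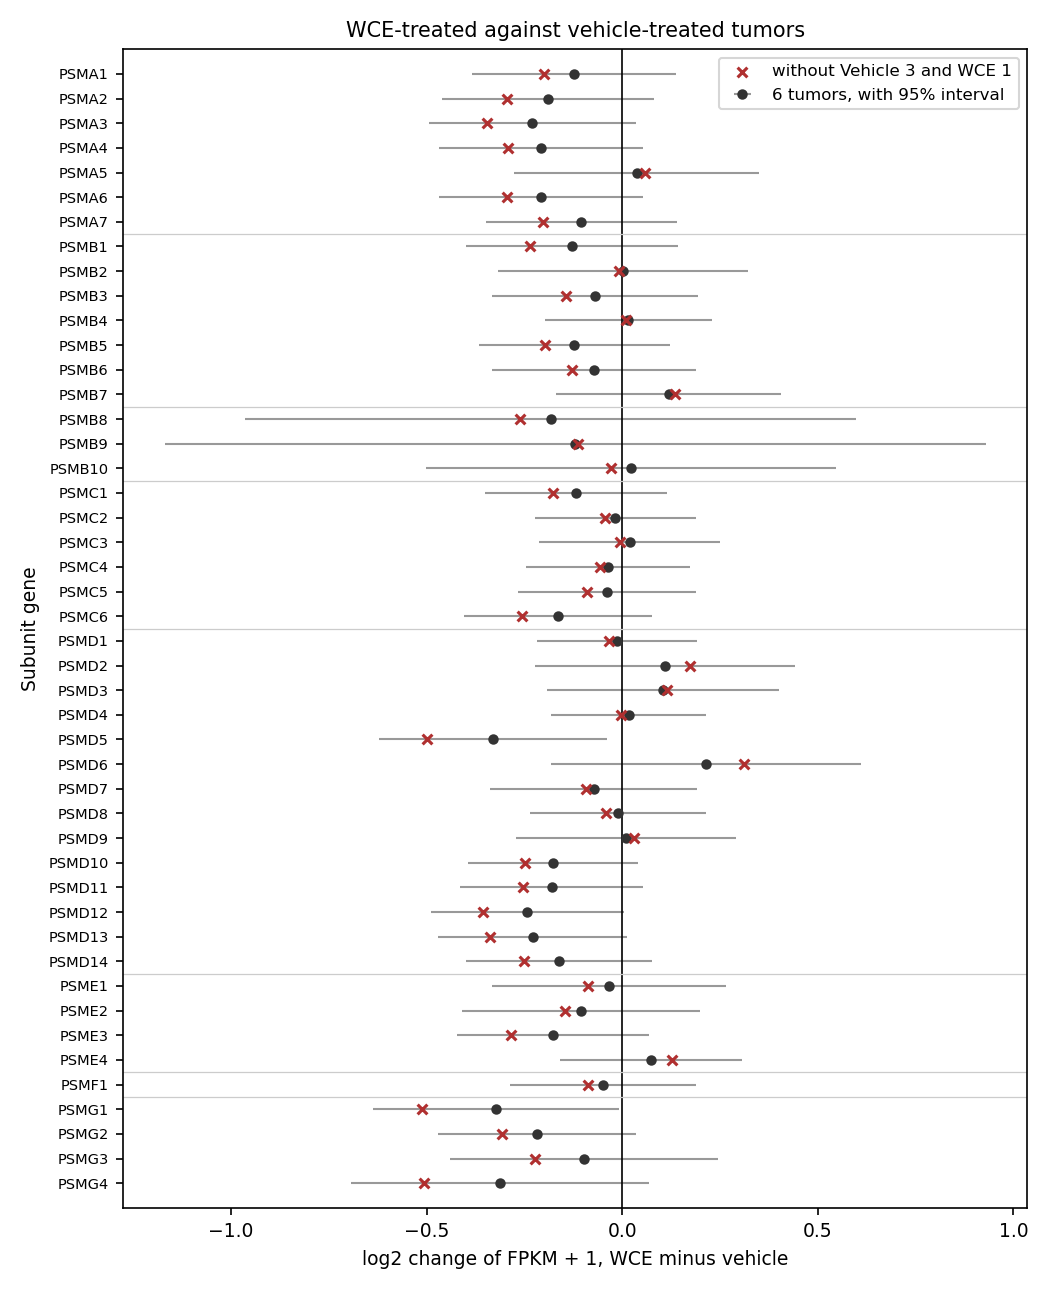
Log2 change of FPKM + 1 from Vehicle to WCE for the 46 genes, as black points with 95% intervals from limma over 6 tumors and as red crosses without Vehicle replicate 3 and WCE replicate 1. The intervals of 44 genes include 0, those of PSMD5 and PSMG1 do not, and those of PSMB8 and PSMB9 are widest.

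Leaving out the nearly identical tumors, Vehicle replicate 3 and WCE replicate 1, leaves 2 tumors against 2 and gave larger differences. The median log2 change over the 46 genes was −0.14, against −0.0090 over all entries in that fit. The mean log2 value was lower in WCE for 38 of the 46 genes. Of the 13287 entries that passed the filter with 6 tumors, it was lower for 6772. By limma, 7 genes passed the unadjusted threshold, all lower in WCE (PSMG1, PSMD5, PSMG4, PSMD12, PSMA3, PSMD13 and PSMG2). That is 15.2% of the proteasome genes against 18.6% of all entries in either direction and 9.63% in the lower one. The log2 change was −0.51 for PSMG1 (standard error 0.11, unadjusted p = 0.00381, adjusted p = 0.168 by limma) and −0.50 for PSMD5 (standard error 0.11, unadjusted p = 0.00532, adjusted p = 0.170 by limma). In 24 genes, or 52.2%, both WCE tumors were below both Vehicle tumors, against 27.8% of all entries, and in 2 genes, or 4.35%, they were above, against 25.8%. None passed the adjusted threshold, which 0.0377% of all entries passed. PSMB8, PSMB9 and PSMB10 had log2 changes of −0.26, −0.11 and −0.03 with overlapping groups.

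Some epithelial and stromal markers also differed between the groups before adjustment, and none after it. EPCAM had a log2 change of −0.73 and CDH1, E-cadherin, of −0.47, each with every WCE tumor below every Vehicle tumor, while VIM, the intermediate filament of mesenchymal cells, had 0.41. In EPCAM and CDH1 the gap lay between the nearly identical Vehicle replicate 3 and WCE replicate 1. EPCAM and CDH1 were 2 of 6 epithelial markers under an unadjusted p of 0.05 by limma, against 7.1% of all entries. The keratins KRT8, KRT18 and KRT19 had log2 changes of 0.05, 0.10 and −0.01, and the median of the list was 0.02 with 3 of 6 lower. KDR, an endothelial receptor, was 1.14 higher and LUM, a matrix protein of fibroblasts, fell by 0.85 on the log2 scale. The 6 fibroblast markers summed to 42.1 to 56.4 FPKM in the Vehicle tumors and 12.8 to 55.9 FPKM in the WCE tumors, and the 5 endothelial markers to 1.20 to 3.37 FPKM and 3.21 to 7.60 FPKM. KDR made most of the highest endothelial sum, in WCE replicate 3, while PECAM1, another endothelial marker, averaged 2.14 FPKM in the Vehicle tumors and 2.30 FPKM in the WCE tumors. The part of the makeup of the tumors in the proteasome values was not tested.

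Proteasome genes are activated together by NFE2L1, which is released from the endoplasmic reticulum, deglycosylated by NGLY1 and cut by DDI2 when proteasome activity is short, and acts on antioxidant-type elements. NFE2L1 had 83.0, 66.4 and 84.2 FPKM in the Vehicle tumors and 83.0, 71.3 and 84.6 FPKM in the WCE tumors, a log2 change of 0.04. NGLY1 had 34.0, 36.3 and 32.6 FPKM and 32.1, 26.7 and 28.8 FPKM, so that every WCE tumor was below every Vehicle tumor (log2 change −0.23, standard error 0.10, unadjusted p = 0.0603 by limma). The gap lay between the nearly identical Vehicle replicate 3 and WCE replicate 1. DDI2 was low, at 2.16 to 3.59 FPKM, and NFE2L2, the related factor NRF2, had a log2 change of −0.13. STAT3, listed with these regulators, was at most 0.399 FPKM and did not pass the filter.

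The letters TGACNNNGC, an antioxidant-type element core, occurred on either strand in windows of 15 of the 42 proteasome genes, among them PSMD5 and PSMG1, which is 35.7% of these genes against 16.1% of all genes with a window. The windows of PSMD5 and PSMG1, both on the minus strand, are printed with the match in capitals (GRCh38.p14).
PSMD5, chr9:120842873-120843172: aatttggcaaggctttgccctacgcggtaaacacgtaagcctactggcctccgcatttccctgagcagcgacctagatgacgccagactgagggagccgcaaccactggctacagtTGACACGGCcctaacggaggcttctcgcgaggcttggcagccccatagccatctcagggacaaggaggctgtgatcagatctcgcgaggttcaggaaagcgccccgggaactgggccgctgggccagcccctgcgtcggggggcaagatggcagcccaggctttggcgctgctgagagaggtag
PSMG1, chr21:39183402-39183701: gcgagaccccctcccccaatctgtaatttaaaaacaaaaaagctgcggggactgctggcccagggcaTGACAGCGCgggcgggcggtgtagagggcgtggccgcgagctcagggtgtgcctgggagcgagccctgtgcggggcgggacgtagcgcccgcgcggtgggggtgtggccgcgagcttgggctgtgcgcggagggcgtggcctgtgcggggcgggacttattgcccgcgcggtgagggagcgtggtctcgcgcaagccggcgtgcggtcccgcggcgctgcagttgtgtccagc
PSMB9 was the only immunoproteasome gene with this motif, and of the 6 genes whose groups did not overlap, PSMA4 and PSMD12 had it.

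Factors that assemble or work with the proteasome but lie outside its gene series were also mostly lower by a small amount. Of 14 such genes, 11 had a lower mean log2 value in WCE, against 51.4% of all entries, and the median log2 change was −0.14. None passed the unadjusted threshold by limma, against 7.1% of all entries. POMP, the chaperone that completes the core, had 103, 124 and 116 FPKM in the Vehicle tumors and 115, 83.9 and 85.6 FPKM in the WCE tumors, a log2 change of −0.28 (standard error 0.14, unadjusted p = 0.0929 by limma). USP14, a deubiquitinase that binds the cap, had a log2 change of −0.23, and SEM1, the smallest subunit of the cap, of −0.21. ADRM1, the ubiquitin receptor, had 0.03. TXNL1 and ZFAND5, proteasome-associated proteins, were the 2 of these 14 genes with every WCE tumor below every Vehicle tumor, against 6.4% of all entries. In both the gap lay between the nearly identical Vehicle replicate 3 and WCE replicate 1.

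Of 7 interferon regulators and antigen-processing genes, 3 had a lower mean log2 value in WCE, against 51.4% of all entries, and the median log2 change was 0.18. None passed the unadjusted threshold by limma, against 7.1% of all entries. The largest was IRF1, at 0.46 (standard error 0.31, unadjusted p = 0.181 by limma). TAP1 was at −0.02, and as for PSMB9 its standard error was wide, at 0.34.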

How the data were processed

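The authors deposited 1 table of FPKM values per gene entry, with a column for each of the 6 PC-3 tumors, from TruSeq stranded mRNA libraries. The submitters' processing notes name TopHat2 2.0.13, Cufflinks and the builds hg19 and mm10 without their roles. Scaling between tumors and the use of strand are not given in the sources used here. Table coordinates are taken as hg19, and promoter windows are GRCh38.p14. Reads could be split among entries with a shared locus, which 9 members have (PSMA3, PSMB7, PSMB8, PSMC2, PSMC5, PSMD1, PSMD6, PSME1 and PSMG2).

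Columns were matched to tumors by the labels. Entries averaging at least 0.5 FPKM were kept, and log2(FPKM + 1) was fitted in R 4.3.3 with limma 3.58.1, using a trended prior variance and Benjamini-Hochberg adjustment. This scale understates changes of low genes. Relative depth was the commonest ratio of low values to those of Vehicle replicate 3. As absolute depth is unknown, counting error has no interval here. The labels tie each tumor to no other. The limma p-values set the group difference against the spread between these tumors, with the variance drawn toward a trend over all entries. The script was tested on simulated data, and Python 3.11.15 drew the figures.

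The members, lists, motifs and tests were chosen with earlier results of these data known. Given by tumor are the catalytic subunits, genes past an unadjusted p of 0.05, the 3 largest rises and falls, the PSME genes, PSMF1, PSMA8, PSMB11 and the extremes of each class. PSMD12, PSMA4 and the genes read beside the immunoproteasome were named after their values were seen. RefSeq proteins were not used here. Some listed genes are not reported here.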

Additional observations from a re-analysis of the deposited data

How the results depend on the processing

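Of the 46 proteasome genes, 2 passed an unadjusted p of 0.05 by limma. The count was 1 with upper-quartile scaling (2.17%, against 7.26% of all entries) and 1 with no mean-variance trend (2.17%, against 6.73%). It was 0 with an unmoderated two-sample test, against 4.46% of all entries. With no filter on low values it was 4 of 48 (8.33%, against 4.38% of all entries). With limma array weights it was 11 (23.9% of the genes, against 24.1% of all entries). Without Vehicle replicate 3 and WCE replicate 1 it was 7 (15.2%, against 18.6%), an alternative added after the data had been seen. When each of the 6 tumors was left out in turn the count was 0 to 6. It was 6 without Vehicle replicate 3 (13%, against 13.3% of all entries). Without WCE replicate 1 it was 5 (10.9%, against 15.3%), with PSMD6 higher. Without Vehicle replicate 1 it was 1, PSMB9 (2.17%, against 3.3%). It was 0 without Vehicle replicate 2, WCE replicate 2 or WCE replicate 3, against 2.84%, 1.84% and 1.72% of all entries, respectively. The adjusted count was 0 in every setting run. The median log2 change stayed between −0.14 and −0.067 in the fits without 1 tumor, and the change of the immunoproteasome minus that of the constitutive catalytic genes between −0.51, without Vehicle replicate 1, and 0.20, without Vehicle replicate 2. For each of these changes the cause was not tested.

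For 23 named genes in the 12 settings that can move a log2 change, 249 values kept their direction and 27, in 13 genes, did not. With upper-quartile scaling PSMC2 became 0.0016. With limma array weights PSMB10 was −0.17, PSMB2 −0.061 and PSMB4 −0.0018. Without Vehicle replicate 3 and WCE replicate 1, PSMB10 was −0.029 and PSMB2 −0.0081. In the fits without 1 tumor, the log2 change ranged from −0.061 to 0.14 for PSMA5, −0.22 to 0.17 for PSMB10, −0.075 to 0.13 for PSMB2, −0.019 to 0.036 for PSMB4, −0.0021 to 0.21 for PSMB7, −0.54 to 0.0037 for PSMB8, −0.66 to 0.17 for PSMB9, −0.051 to 0.028 for PSMC2, −0.045 to 0.19 for PSMD2, −0.13 to 0.069 for PSME1, −0.20 to 0.022 for PSME2, −0.12 to 0.013 for PSMF1 and −0.22 to 0.062 for PSMG3.

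The labels do not say that a number marks a shared mouse, day or batch. Deviations from the group mean correlated at −0.24, 0.16 and −0.093 within numbers, so the numbers were not taken to pair them. With a replicate block, 3 proteasome genes passed the unadjusted threshold by limma, PSMD12 in addition to PSMD5 and PSMG1 (6.52%, against 7.89% of all entries), and the median log2 change was −0.10.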
